A study of Mus musculus with 2 samples.

Results

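The 44 genes described here encode the proteins that fold, modify and export collagen, together with the general machinery of the secretory pathway they work in. They were taken from a list of symbols, and all 44 were found among the 32286 features of both count matrices. The cells came from knee joint cartilage of Procr-CreER;tdTomato mice and were sorted as CD45-Ter119-CD31-DAPI-tdTomato+. In these mice the promoter of Procr, the protein C receptor gene, drives a tamoxifen-dependent Cre recombinase that switches on a red reporter, so the label marks cells that used Procr at the time of tamoxifen and their descendants. Tamoxifen was given at the age of 4 weeks in both groups. The pulse group was collected 2 days after it and the trace group 4 weeks after it, with 3 mice pooled in each group and no untreated group. Each group is 1 droplet library of 3′ tags, so no value below has a replicate error and no difference was tested across animals. The preparation protocol names periosteum cells beside the epiphysis cartilage, so cells from outside cartilage can be present.

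Collagen chains enter the endoplasmic reticulum (ER) through the Sec61 channel and are hydroxylated on prolines and lysines, some of which then receive sugars. These modifications and the collagen chaperones let 3 chains wind into a stable helix, and the folded procollagen leaves in enlarged transport carriers before its propeptides are cut off. Chondrocytes make type II, IX and XI collagen, osteoblasts and fibroblasts mainly type I and III, and hypertrophic chondrocytes type X. Cells with a heavy secretory load are known to use the unfolded protein response, in which ER chaperone genes are switched on through short promoter elements.

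The promoters of the ER chaperone members are shown first because several of them hold the element by which that response is known to act. RefSeq windows of 250 bases before the annotated start (GRCm38.p6, the build that mm10 is) were found for 35 of the 44 members. The 9 without a window were Plod2, P3h2, P3h4, Fkbp10, Bmp1, Sec61a1, Kdelr2, Lman1 and Creb3l1. The ER stress response element, spelled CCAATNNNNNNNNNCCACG and searched on both strands, was found in 5 of these 35 genes and in 35 of 27025 genes overall (0.130%). All 5 belong to the general ER chaperones and disulfide isomerases, of which 7 had a window, and none to the other 28 members with a window. Capitals below mark the fixed letters of each match, read on the gene's strand, so that a match on the opposite strand reads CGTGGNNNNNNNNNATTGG. Serpinh1, the collagen chaperone that results below turn on, is printed for comparison and has no match.
Hspa5 (chr2:34771840-34772089, + strand): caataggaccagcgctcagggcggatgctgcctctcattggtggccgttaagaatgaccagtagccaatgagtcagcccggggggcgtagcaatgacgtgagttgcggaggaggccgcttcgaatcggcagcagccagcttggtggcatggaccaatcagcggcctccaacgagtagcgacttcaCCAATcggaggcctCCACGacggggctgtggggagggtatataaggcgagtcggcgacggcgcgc
Hsp90b1 (chr10:86705445-86705694, - strand): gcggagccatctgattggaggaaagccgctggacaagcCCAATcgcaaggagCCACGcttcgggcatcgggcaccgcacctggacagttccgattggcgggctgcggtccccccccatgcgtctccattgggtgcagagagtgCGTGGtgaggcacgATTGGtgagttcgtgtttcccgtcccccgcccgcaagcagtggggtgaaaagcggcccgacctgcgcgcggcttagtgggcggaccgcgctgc
Calr (chr8:84846932-84847181, - strand): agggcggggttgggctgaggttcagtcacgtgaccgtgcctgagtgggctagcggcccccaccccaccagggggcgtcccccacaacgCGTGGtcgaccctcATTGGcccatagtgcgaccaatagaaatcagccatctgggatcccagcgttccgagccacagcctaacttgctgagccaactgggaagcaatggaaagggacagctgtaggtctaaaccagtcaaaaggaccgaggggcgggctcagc
Canx (chr11:50325674-50325923, - strand): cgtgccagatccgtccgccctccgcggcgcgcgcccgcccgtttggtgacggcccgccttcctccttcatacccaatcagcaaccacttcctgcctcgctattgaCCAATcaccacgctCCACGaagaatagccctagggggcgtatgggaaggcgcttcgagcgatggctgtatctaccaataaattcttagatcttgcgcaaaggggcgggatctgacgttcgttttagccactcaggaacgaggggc
Pdia6 (chr12:17266339-17266588, + strand): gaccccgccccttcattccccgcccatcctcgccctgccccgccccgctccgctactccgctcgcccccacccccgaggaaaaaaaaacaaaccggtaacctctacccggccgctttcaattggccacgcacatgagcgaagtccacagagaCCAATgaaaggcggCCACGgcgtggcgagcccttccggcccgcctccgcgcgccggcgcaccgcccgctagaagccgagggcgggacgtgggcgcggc
Serpinh1 (chr7:99353240-99353489, - strand): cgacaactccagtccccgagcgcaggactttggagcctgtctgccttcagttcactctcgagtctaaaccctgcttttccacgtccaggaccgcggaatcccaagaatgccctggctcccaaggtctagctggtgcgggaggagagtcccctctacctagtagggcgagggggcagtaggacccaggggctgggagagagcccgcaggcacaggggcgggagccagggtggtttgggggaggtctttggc
Hsp90b1 held 2 matches, and the other 4 genes 1 each. A shorter element bound by XBP1, TGACGTGG, was found in Kdelr3 and Sec24d and in 0.603% of all genes. The variant element ERSE-II and TGATGCAA, an element of the ATF4 type, were found in none of the 35 members and in 0.0370% and 0.918% of all genes. A match describes letters and not binding, and these windows were not measured here.

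The pulse library held 23306063 unique molecular identifiers (UMIs) in 6863 barcodes and the trace library 40284041 in 10423. Cells with 500 or more genes and no more than 10% mitochondrial UMIs were kept, which left 6533 in pulse (median depth 2837 UMIs) and 9247 in trace (3645 UMIs). The libraries shared 16 barcodes, 15 of them kept. They differed in more than time: Xist had 3 pulse and 14149 trace UMIs, Y-linked Ddx3y had 4246 and 13, and transcripts associated with ribosomal RNA took 0.961% and 8.89% of UMIs. Time after tamoxifen, age, sex and library cannot be told apart. The 44 members took 1.11% of kept pulse UMIs and 0.929% of trace UMIs.

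Cells were assigned to classes by the summed level of marker genes, with no collagen and no member among the markers. Cells like superficial-zone chondrocytes (Prg4, Cilp, Cytl1 and others) numbered 2815 in pulse and 3539 in trace, and cells like deeper-zone chondrocytes (Matn3, Matn1, Epyc and others) 643 and 173. The label "superficial cells" therefore covers the largest gated class but not the whole sort. There were 322 and 741 synovial lining-like cells. Loose fibroblast-like cells, gated on markers of loose connective tissue, came to 105 and 394. Osteoblast-like, mural-like, neutrophil-like and B lineage-like cells reached 50 cells only in trace, with 133, 227, 258 and 121, and endothelial-like cells numbered 50 and 272. No gate took 38.8% of pulse and 36.4% of trace cells. Many cells lay near a cut: 610 pulse cells were within 1.5 times below the superficial marker cut, and 652 gated cells within 1.5 times above it. When all cells were clustered instead, 4 clusters had the superficial-zone markers, and the libraries filled them unequally. Pulse and trace gave 945 and 2149 cells to cluster 1, 1911 and 243 to cluster 2, 171 and 1692 to cluster 3, and 50 and 140 to cluster 14. Values are UMIs of a gene per 1000000 UMIs of the summed cells (CPM) with an exact Poisson 95% interval, which covers counting error only.

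Collagen output and the level of the 44 genes were not proportional across classes. Collagen genes took 5.58% of UMIs in deeper-zone-like cells in pulse and 3.34% in trace, against 1.42% and 1.01% in superficial-zone-like cells. The members together took 1.53% and 1.28% in the deeper-zone-like cells and 0.951% and 0.974% in the superficial-zone-like cells. Col2a1, the type II chain, led in deeper-zone-like cells with 54.2% of collagen UMIs in pulse and 43.5% in trace, and Col1a1 led in osteoblast-like cells with 59.0%. In superficial-zone-like cells Col2a1 (29.5% and 25.4%) stood beside Col10a1 (33.7% and 24.0%), the type X chain. Osteoblast-like cells had the highest collagen share, 5.80%, but the members took only 0.811% of their UMIs. This came to 0.140 member UMIs per collagen UMI in osteoblast-like cells, 0.274 and 0.382 in deeper-zone-like cells of pulse and trace, and 0.670 and 0.968 in superficial-zone-like cells. Synovial lining-like cells, with 0.414% and 0.324% collagen, had 2.29 and 2.49 member UMIs per collagen UMI. In neutrophil-like cells, which make little collagen, the members took 0.275% of UMIs.

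**Figure D1:**
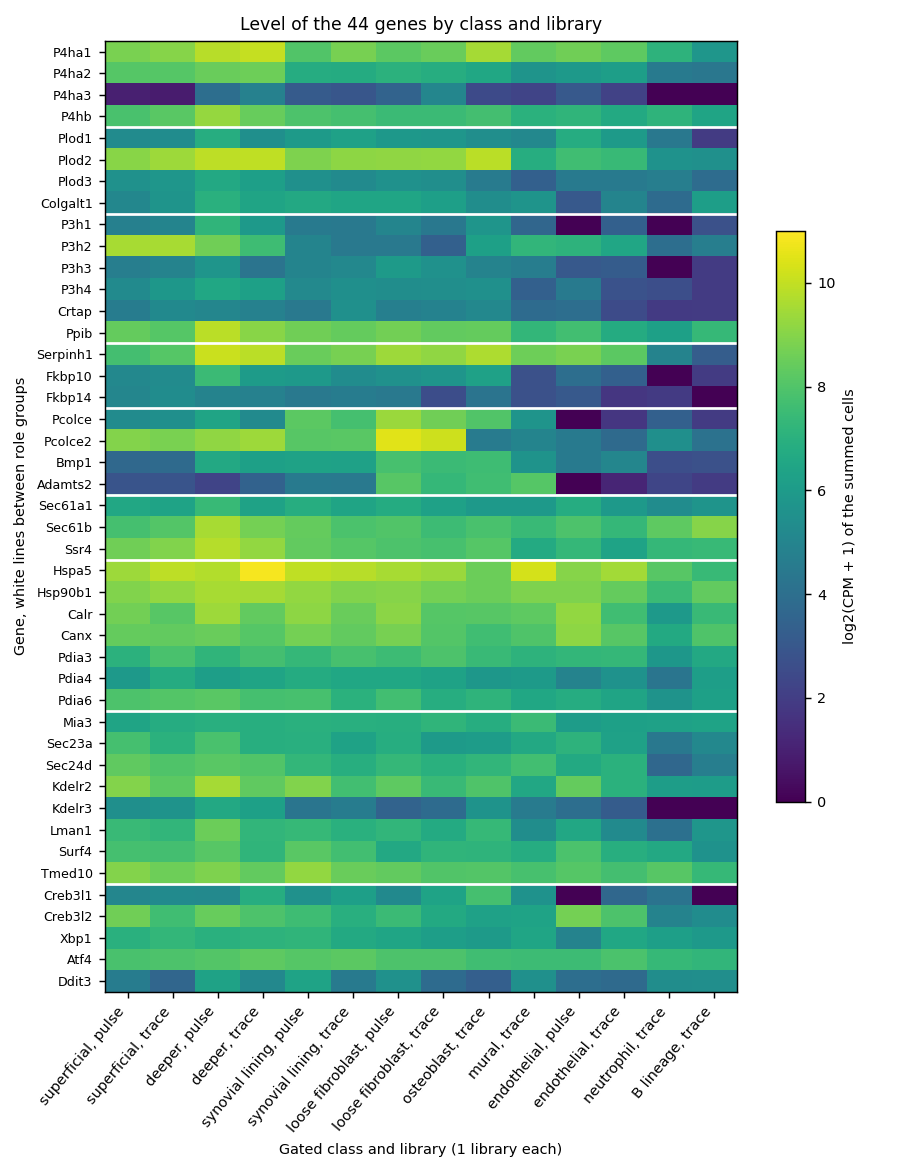
Level of each of the 44 genes (rows, ordered by role, white lines between role groups) in each gated class and library (columns), as log2(CPM + 1) of the summed cells, 1 library each. P3h2 is brightest in the superficial columns, Adamts2 in loose fibroblast, osteoblast and mural columns, and Serpinh1 is brightest in the deeper columns (1119.8 CPM in pulse, 928 in trace).

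Proline 4-hydroxylation, the step that makes the helix stable at body temperature, is done by P4ha1, P4ha2 or P4ha3 paired with P4hb, which is also a disulfide isomerase. P4ha1 stood at 446 CPM (432 to 459.5) in superficial-zone-like pulse cells, 514 (503 to 524) in trace, 907 (881 to 933) in deeper-zone-like pulse cells and 1035 (976 to 1097) in trace. It was thus higher in the deeper-zone-like cells of both libraries, and it stood at 726 CPM in osteoblast-like cells. P4ha2 was a chondrocyte form here, with 273 and 269.8 CPM in superficial-zone-like and 353 and 374 CPM in deeper-zone-like cells, against 92.5 to 135 CPM in synovial lining-like, loose fibroblast-like and osteoblast-like cells. P4ha3 was scarce, with 0.971 and 0.778 CPM in superficial-zone-like cells (9 and 14 UMIs), 14.8 and 27.8 CPM in deeper-zone-like cells and 32.0 CPM in loose fibroblast-like trace cells. Among the lysine-modifying enzymes, Plod2, which hydroxylates the chain ends used for cross-links, ran from 464 to 973 CPM in chondrocyte-like, fibroblast-like and osteoblast-like cells and from 115 to 197 CPM in mural-like and endothelial-like cells. Plod1, Plod3 and the galactosyltransferase gene Colgalt1 stayed between 22.6 and 124 CPM in those 5 matrix-making classes.

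P3h2, a proline 3-hydroxylase, set superficial-zone-like cells apart from synovial lining-like cells more sharply than any other of the 44 genes compared between them. It stood at 755 CPM (737 to 773) in superficial-zone-like pulse cells and 759 (746 to 772) in trace. Deeper-zone-like cells had 389.7 CPM (373 to 407) and 193 (169 to 221), synovial lining-like cells 30.2 and 20.6, loose fibroblast-like cells 20.7 and 9.26, and osteoblast-like cells 74.4. Mural-like trace cells, at 149 CPM, were not far below the deeper-zone-like trace cells. With every cell thinned to 2000 UMIs, 60.4% of 2259 superficial-zone-like pulse cells and 63.5% of 3162 trace cells had a P3h2 UMI (68.9% and 81.3% before thinning). The share was 1.41% (0.171% to 4.995%) of 142 neutrophil-like cells, which should lack the gene. Median depth before thinning was 2959 and 4572 UMIs in the superficial-zone-like cells and 2206.5 in the neutrophil-like cells. P3h1, Crtap and Ppib form the complex that 3-hydroxylates type I and II collagen. P3h1 was highest in deeper-zone-like pulse cells, 146 CPM (135 to 156), and Ppib, which is also a general peptidyl-prolyl isomerase, reached 918 CPM there. Crtap stayed between 21.02 and 45.05 CPM in chondrocyte-like, fibroblast-like and osteoblast-like cells, and P3h3 and P3h4, partners of lysyl hydroxylase 1, between 17.9 and 93.4 CPM.

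Serpinh1 encodes HSP47, the chaperone that binds the finished collagen helix. Its level was 209 CPM (199 to 218) and 277 (269.5 to 285) in superficial-zone-like cells of pulse and trace, 1119.8 (1091 to 1149) and 928 (872 to 986) in deeper-zone-like cells, 363 and 423 in the synovial lining-like class, 678 and 573 in the loose fibroblast-like class and 789 in osteoblast-like cells. Neutrophil-like cells had 29.2 CPM and B lineage-like cells 8.41. The superficial-zone-like cells were thus the lowest, in each library, of the chondrocyte-like, fibroblast-like and osteoblast-like classes measured there. Endothelial-like cells, at 446 and 298 CPM, were above them. Fkbp10, another collagen chaperone, followed deeper-zone-like pulse cells (182 CPM) and osteoblast-like cells (76.7 CPM), while Fkbp14 had 39.2 CPM at most, in superficial-zone-like trace cells.

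The genes of propeptide removal were unevenly spread over the classes. Bmp1 encodes the proteinase that cuts the C-propeptide, Pcolce and Pcolce2 encode its enhancers, and Adamts2 encodes the enzyme that cuts the N-propeptide. Pcolce stood at 39.0 and 42.9 CPM in superficial-zone-like cells and at 642 (534 to 765) and 392 (357 to 429.5) in loose fibroblast-like cells. Pcolce2 was present in both chondrocyte classes (444 to 671 CPM) and highest in loose fibroblast-like cells, at 1454 CPM (1289 to 1635) in pulse and 1161 (1100.3 to 1224) in trace, but it was only 22.6 CPM in osteoblast-like cells. Adamts2 was 6.25 and 6.33 CPM in superficial-zone-like cells, 285 and 158 in loose fibroblast-like cells, 198 in osteoblast-like cells and 270.0 in mural-like cells. The 2 enhancer genes therefore parted in osteoblast-like cells, where Pcolce stood at 259 CPM.

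The general machinery of the secretory pathway was present in every class. Among the translocon genes, Sec61b stood at 213 CPM (204 to 222) and 263 (255 to 270.3) in superficial-zone-like cells of pulse and trace, 759.8 (736 to 784) and 416 (379 to 455) in deeper-zone-like cells, and 519 (446 to 599) in B lineage-like cells, which are not collagen makers. Ssr4, a subunit of the complex beside the channel, was at 388 and 487 CPM in superficial-zone-like and 877 and 592 CPM in deeper-zone-like cells, and Sec61a1 ran from 39.8 to 167 CPM over all classes. Hspa5 was spread across lineages, with 666 CPM (649 to 683) and 952 (938 to 966) in superficial-zone-like cells, 997 and 901 in synovial lining-like cells, 1248 (1155 to 1347) in mural-like cells and 280.0 in neutrophil-like cells. After thinning, 34.5% of neutrophil-like cells had an Hspa5 UMI. Hsp90b1, the ER form of HSP90, was at 487 and 598 CPM in superficial-zone-like and 744 and 736 CPM in deeper-zone-like cells. Calr, a lectin chaperone gene, was at 409 and 278 CPM and at 670 and 324 CPM in the same classes. Canx, Pdia3, Pdia4 and Pdia6 lay between 60.5 and 362 CPM in those 2 classes.

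Of the genes of ER exit and retrieval, Kdelr2, a receptor that returns escaped ER proteins, was at 491 and 303 CPM in superficial-zone-like and 729.7 and 317 CPM in deeper-zone-like cells, and so was lower in trace in both. Tmed10, a cargo receptor of the p24 family, was at 499 and 375 CPM and at 468 and 327 CPM. Sec24d and Sec23a of the transport coat were at 321 and 252 CPM and at 217 and 131 CPM in superficial-zone-like cells, against 288 and 257 CPM and 227 and 116 CPM in deeper-zone-like cells. Mia3, which loads procollagen into carriers, lay between 85.4 and 122 CPM in both chondrocyte classes and was highest in mural-like cells, at 181 CPM. The cargo receptor genes Lman1 and Surf4 lay between 147 and 373 CPM in the chondrocyte classes, and Kdelr3 had 99.1 CPM at most. Of the transcription factor genes, Creb3l2 was at 394 and 197 CPM, Atf4 at 228 and 239 CPM and Xbp1 at 126 and 155 CPM in superficial-zone-like cells.

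The comparison of deeper-zone-like with superficial-zone-like cells asks which steps go with the higher collagen output within cartilage. In pulse, 18 of 42 members with at least 20 CPM in either class were at least 2-fold higher in deeper-zone-like cells and none lower, and their median log2 ratio was 0.66. Among all 6970 genes tested, 17.5% were that much higher and 14.2% lower, with a median of 0.03. The 18 included enzymes (P4ha1, P4hb, Plod1, Plod3, Colgalt1, P3h1, P3h3, P3h4, Ppib), chaperones (Serpinh1, Fkbp10), propeptide genes (Pcolce, Bmp1), translocon genes (Sec61b, Ssr4), traffic genes (Kdelr3, Lman1) and Ddit3. Bmp1 had the largest ratio of those tested, 7.95-fold (6.47 to 9.83), at 97.7 against 12.3 CPM. P3h1 was 5.49-fold higher (4.74 to 6.37), and Serpinh1 and Fkbp10 were both 5.37-fold higher (5.10 to 5.65 and 4.72 to 6.12). None of the 7 general ER chaperones and disulfide isomerases reached 2-fold, the nearest being Calr at 1.64-fold (1.57 to 1.72). Hspa5, which encodes the chaperone BiP, was 1.27-fold higher (1.22 to 1.32).

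In trace the same comparison had fewer members past 2-fold: 7 of 43 higher and 1 lower, with a median log2 ratio of 0.28. Of 6020 genes tested, 9.8% were past the fold upward and 12.5% downward, and the median was -0.13. P4ha1 (2.01-fold, 1.89 to 2.14), P3h1 (2.00-fold, 1.53 to 2.58), Serpinh1 (3.35-fold, 3.13 to 3.58), Bmp1 (5.81-fold, 4.48 to 7.47) and Ddit3 (3.00-fold, 2.07 to 4.26) were past 2-fold in both libraries. Creb3l1, a transcription factor gene known from type I collagen-making osteoblasts, was 3.05-fold higher (2.50 to 3.69) in trace only, at 114 against 37.3 CPM. In pulse it stood at 34.9 and 31.8 CPM, and the difference between the libraries was not tested. P4ha3 had 31 UMIs in 173 deeper-zone-like and 14 in 3539 superficial-zone-like trace cells, a ratio of 35.7 (18.4 to 72.6). P3h2 was the lower gene, 3.92-fold below the superficial-zone-like level (3.43 to 4.51) in trace and 1.94-fold below it (1.84 to 2.04) in pulse. P4ha1 in both libraries and P3h1 in trace sit at the edge of the 2-fold call. Both fell short of it when classes came from clusters (log2 ratios of 0.76 and 0.81 for P4ha1 in pulse and trace, and 0.73 for P3h1 in trace). The pulse ratios of P3h3 (0.65), Pcolce (0.95), Kdelr3 (0.95) and Lman1 (0.99) also fell short with classes from clusters.

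**Figure D2:**
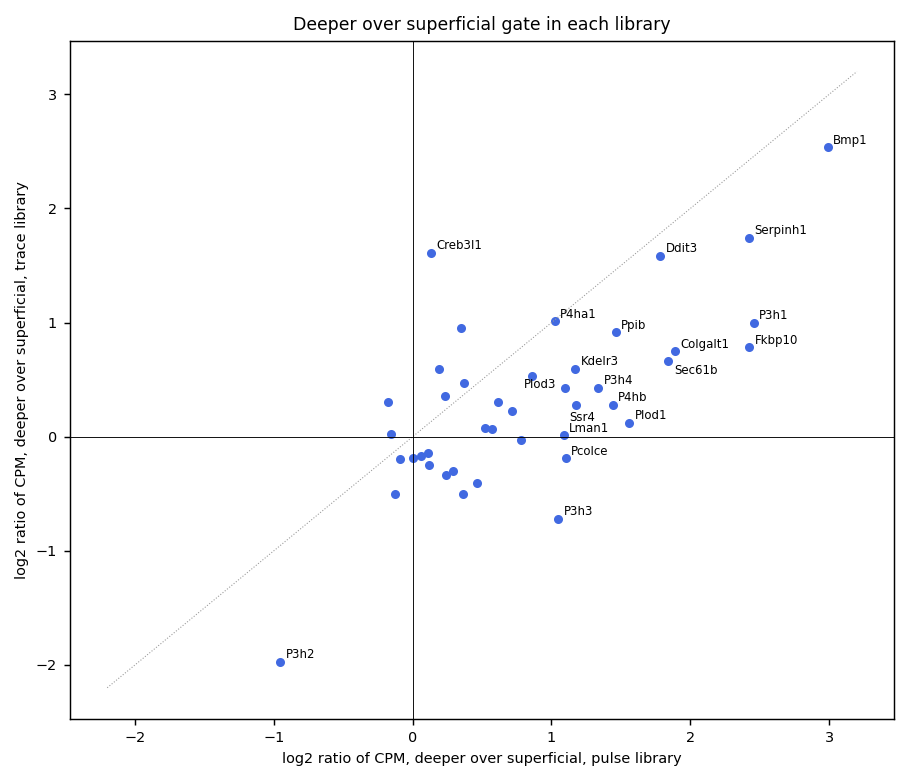
Each point is 1 of the members tested in both libraries, by its log2 ratio of CPM in deeper-zone-like over superficial-zone-like cells in pulse (x axis) and trace (y axis); the dotted line marks equal ratios. Bmp1 and Serpinh1 lie far from 0 in both libraries, P3h2 is below 0 in both, and Creb3l1 is high only on the trace axis (1.61 against 0.13 in pulse).

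Markers of other cells differed between these classes as well. The summed osteoblast list stood at 154 CPM in deeper-zone-like pulse cells and 253 in trace (5 of 6 markers detected in each), against 31.3 and 29.4 in superficial-zone-like cells. Col1a1, the type I collagen gene, was at 56.5 and 1355 CPM in deeper-zone-like cells, while the loose fibroblast list was at 4.14 and 5.37 CPM and the macrophage list at 0. The cycling list was at 263 and 72.5 CPM. The part of these cells in the ratios of Creb3l1, P4ha3 and the other genes was not tested.

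Other genes of the pathway, a list of 71, were counted the same way. In pulse, 11 of 64 tested were at least 2-fold higher in deeper-zone-like cells and 1 lower, with a median log2 ratio of 0.31. The largest were Fkbp11, a prolyl isomerase gene of secretory cells (3.13 on the log2 scale), and Ssr2 of the translocon (1.77), and the lower gene was Tll1, a proteinase gene related to Bmp1 (-3.92). In trace 3 of 65 were above the fold and 3 below it, with Fkbp11 at 1.74 and Tll1 at -2.49. Tll1 thus went the opposite way to Bmp1 in both libraries, being higher in superficial-zone-like cells.

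Outside cartilage the members as a list lay close to the share of all genes past the fold, in both directions, in osteoblast-like cells. In osteoblast-like against superficial-zone-like trace cells, 6 of 42 members were at least 2-fold higher and 8 lower, with a median log2 ratio of -0.31. For all 6485 genes tested these shares were 16.4% and 20.9%, with a median of -0.15. The higher genes were Adamts2 (31.3-fold, 23.5 to 41.8), Bmp1 (14.6-fold, 11.3 to 18.8), Pcolce (6.04-fold, 4.92 to 7.35), Creb3l1 (5.81-fold, 4.64 to 7.20), Serpinh1 (2.85-fold, 2.55 to 3.17) and Fkbp10 (2.02-fold, 1.39 to 2.85). The lower genes were Pcolce2, P3h2, P4ha2, Hspa5, Creb3l2, Xbp1, Plod3 and Fkbp14. Creb3l1 stood at 216 CPM (175 to 264) in osteoblast-like cells and its relative Creb3l2, known for driving Sec23a in growing cartilage, at 76.7 (53.1 to 107). In superficial-zone-like cells the order was reversed, with 37.3 and 197 CPM. Hspa5 was 368 CPM in osteoblast-like and 952 in superficial-zone-like cells, a log2 ratio of -1.37 that was -0.46 when classes came from clusters. The heat shock genes, whose levels are known to follow tissue dissociation, were summed over 6 genes and stood at 5176 and 3079.8 CPM. Of the 71 other pathway genes, 65 could be compared: 3 were above the fold and 16 below it (median -0.50).

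Osteoblast-like and loose fibroblast-like trace cells, which both make type I collagen, were also set against each other. There 5 of 42 members were at least 2-fold higher in osteoblast-like cells (12.1% of 6540 genes) and 2 lower (19%). P3h2 (8.04-fold, 3.96 to 17.6), Kdelr3, Creb3l1, P3h1 and P4ha1 were the higher genes, and Pcolce2 (10 against 1379 UMIs) and P4ha3 the lower ones. Mural-like trace cells, the contractile cells around vessels, had 3 of 43 members at least 2-fold higher than superficial-zone-like cells (25.9% of 6900 genes) and 17 lower (16.8%). The higher were Adamts2 (42.6-fold, 33.1 to 55.0), Ddit3 and Bmp1, and the lower included Plod2, P4ha2, Pcolce2 and Fkbp10.

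Adamts2, Bmp1 and Pcolce were also higher in the fibroblast-like classes of both libraries. Loose fibroblast-like trace cells had 7 of 43 members at least 2-fold higher than superficial-zone-like cells and 9 lower, against 18.6% and 15.8% of 6543 genes, and medians of -0.41 and 0.11. P4ha3, Adamts2, Bmp1, Pcolce, Pcolce2, Creb3l1 and Serpinh1 were the higher genes, led by P4ha3 at 41.1-fold (21.8 to 82.2) and Adamts2 at 25.0-fold (19.7 to 31.8). P3h2, Fkbp14, Kdelr3, P4ha2, Pdia6, Ssr4, Xbp1, Sec23a and Sec24d were the lower ones. In pulse 7 members were above that fold and 6 below it, against 27.5% and 18.2% of 7590 genes, and Pcolce, Pcolce2, Bmp1, Adamts2 and Serpinh1 were again among the higher. Synovial lining-like cells had only 3 members higher in trace, Bmp1 (5.93-fold, 4.96 to 7.08), Pcolce (5.01-fold, 4.53 to 5.54) and Adamts2 (3.33-fold, 2.46 to 4.50), against 15.8% of 6333 genes. The 5 lower (15.9% of genes) were P3h2, P4ha2, Sec24d, Kdelr3 and Pdia6. In synovial lining-like pulse cells 5 were higher and 5 lower, against 19.8% and 18% of 6965 genes, and Pcolce, Bmp1 and Adamts2 were again higher. The summed heat shock genes were at 9766 CPM in synovial lining-like and 15367 CPM in loose fibroblast-like pulse cells, against 3412 CPM in superficial-zone-like pulse cells.

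The comparison of trace with pulse asks how the pathway stood shortly after labelling and after the 4 weeks. In superficial-zone-like cells Creb3l2 and Ddit3 were at least 2-fold lower in trace, and the other members tested lay within 2-fold. None of 41 members was at least 2-fold higher in trace (2.2% of 6189 genes) and 2 were lower (8.69%), with a median log2 ratio of 0.16 against -0.24 for all genes. The 2 were Creb3l2, at 394 CPM in pulse and 197 in trace (2.00-fold lower, 1.91 to 2.10), and Ddit3, at 23.4 and 11.3 CPM (2.07-fold lower, 1.70 to 2.51). Ddit3 encodes CHOP, a transcription factor of prolonged ER stress. Just inside 2-fold were Pdia4 (1.76-fold higher, 1.60 to 1.94) and Pdia3 (1.70-fold higher, 1.60 to 1.81), both disulfide isomerase genes, and Sec23a (1.66-fold lower, 1.56 to 1.76) of the transport coat. Scaling by the median ratio of all genes turned the split into 2 higher and none lower. With totals that leave out transcripts associated with ribosomal RNA, neither Creb3l2 (-0.88 on the log2 scale) nor Ddit3 (-0.93) reached 2-fold. Of the 71 other pathway genes, Rpn1 of the oligosaccharyltransferase (1.06) and the ER chaperone gene Hyou1 (1.21) were higher and Tll1 (-1.16) lower, among 64 tested.

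In deeper-zone-like cells Hspa5 and Creb3l1 were higher in trace, and most members, like most genes, had a ratio below 1. Of 43 tested, 2 were at least 2-fold higher (3.63% of 6521 genes) and 11 lower (18.6%), with medians of -0.44 for members and -0.36 for all genes. The lower genes were Plod1, P3h1, P3h2, P3h3, Fkbp10, Pcolce, Sec61a1, Calr, Kdelr2, Lman1 and Ddit3. Fkbp10 stood at 182 CPM in pulse and 65.4 in trace (2.79-fold lower, 2.20 to 3.59), P3h1 at 146 and 60.0 (2.43-fold lower, 1.89 to 3.16) and Lman1, a cargo receptor gene, at 373 and 152 (2.45-fold lower, 2.09 to 2.88). P4ha1, Plod2 and Serpinh1 did not follow them, with trace over pulse ratios of 1.14 (1.07 to 1.22), 1.02 (0.956 to 1.09) and 0.829 (0.775 to 0.885). Hspa5 went the other way, at 846 CPM (821 to 872) in pulse and 1838 (1759 to 1919) in trace, 2.17-fold higher (2.06 to 2.29). Creb3l1 was 3.26-fold higher (2.58 to 4.12). Scaling by the median ratio left 3 higher and 3 lower. The deeper-zone-like trace class had 173 cells against 643 in pulse, and superficial-zone markers stood at 2005 CPM in it against 866 in pulse. The heat shock genes were at 2193 and 1819.5 CPM, and their part in the Hspa5 ratio was not tested. Of the other pathway genes none of 65 was higher and 8 were lower, among them Chac1 (-1.95) and Eif2ak3 (-1.22), both of the stress response, and Fkbp11 (-1.88).

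**Figure D3:**
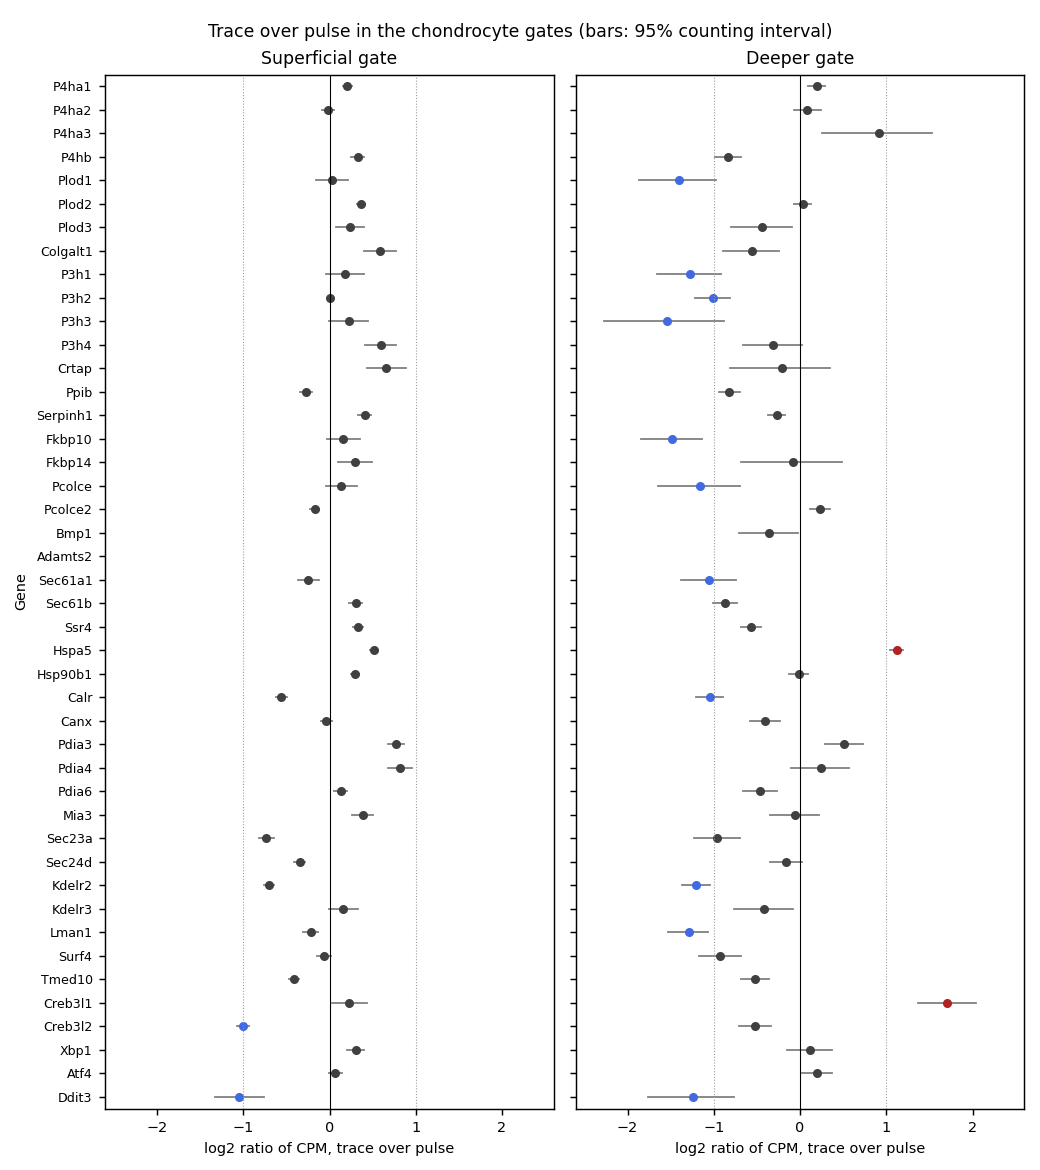
Log2 ratio of CPM in trace over pulse for each member (rows) in the superficial and the deeper gate, for genes at 20 CPM or more in either library; bars are exact 95% counting intervals, dotted lines mark 2-fold, red points are at least 2-fold higher and blue points at least 2-fold lower. P4ha3, Bmp1 and Adamts2 have no point in the superficial gate and Adamts2 none in the deeper gate because they were below 20 CPM there.

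Ddit3 was lower in trace in each of the 4 classes compared between the libraries. Endothelial-like cells, with 50 in pulse and 272 in trace, were not among these classes. Its CPM in pulse and trace was 81.5 (62.5 to 104) and 22.0 (17.4 to 27.4) in synovial lining-like cells and 46.6 (21.3 to 88.4) and 13.5 (7.70 to 21.9) in loose fibroblast-like cells. The counting intervals of the libraries did not overlap in synovial lining-like cells and overlapped slightly in loose fibroblast-like cells, where pulse held 9 UMIs. Atf4, which acts upstream of Ddit3, had ratios near 1 in the chondrocyte classes (1.05, 0.995 to 1.11, and 1.14, 1.01 to 1.29). In synovial lining-like cells 1 of 43 members was higher (1.83% of 6274 genes) and 2 lower (10.3%): Crtap, then Kdelr2 and Ddit3. In loose fibroblast-like cells 2 were higher (6.09% of 7129 genes) and 4 lower (19.7%): P4ha3 and Creb3l1, then P3h2, Fkbp14, Calr and Ddit3. The heat shock genes stood at 9766 and 2956 CPM in the synovial lining-like class and at 15367 and 5733 CPM in the loose fibroblast-like class. In superficial-zone-like cells they were at 3412 and 3079.8 CPM. Their part in the Ddit3 ratios was not tested.

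To relate the genes to collagen cell by cell, the cells of a class and library were ordered by the collagen share of their UMIs and divided into 5 groups of equal size. Levels in the highest were then set against the lowest, per 1000000 UMIs that are not collagen (given below as non-collagen CPM). In deeper-zone-like pulse cells the collagen share ran from 2.92% in the lowest quintile to 8.13% in the highest. Here 20 of 43 members were at least 1.5-fold higher in the highest quintile and 3 lower, with a median log2 ratio of 0.54. Among 6977 genes 15.5% were past the fold upward and 20.5% downward, and the median was -0.02. Serpinh1 stood at 759, 1007, 1193, 1325 and 1537 non-collagen CPM from the lowest quintile to the highest, so that each step was higher than the last. Fkbp10 went from 115 (91.9 to 142) to 242 (212 to 274), Ppib from 641 to 1207, and P3h1 from 62.0 (45.6 to 82.5) to 221 (193 to 252), the largest ratio of the members here, at 3.56-fold (2.59 to 4.99). The enzymes P4hb, Plod1, Colgalt1, P3h3, P3h4 and Crtap, the chaperone gene Fkbp14, Pcolce2 and Bmp1, the translocon genes Sec61a1, Sec61b and Ssr4, and the traffic genes Mia3, Kdelr3, Lman1 and Surf4 were higher too. Fkbp14 rested on 38 and 18 UMIs, and its interval (0.879 to 2.94) included 1. Not all of these held under other settings. Thinned to 2000 UMIs per cell, P3h3 went from a log2 ratio of 1.29 to -0.0756, Fkbp14 to -0.39, Mia3 to 0.35 and Surf4 to 0.42, all short of 1.5-fold. In cells at or below the class median of heat shock genes, Plod1 (0.38), Sec61a1 (0.45), Fkbp14 (-0.27), Mia3 (0.51) and Surf4 (0.45) fell short of it. So did Sec61b (0.44), Plod1 (0.55) and Fkbp14 (0.33) with gate cuts 1.5 times higher, and Kdelr3 (0.51) when cells were ordered by fibrillar collagens.

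Hspa5 and Ddit3 were lower where collagen was higher in those cells. Hspa5 stood at 1211, 997, 922, 783 and 647 non-collagen CPM from the lowest to the highest quintile, 1.87-fold lower in the highest (1.69 to 2.07). Ddit3 went from 116 (93.1 to 143) to 53.3, 2.18-fold lower (1.54 to 3.12). P4ha3 had only 9 and 21 UMIs, and its direction depended on the setting. Other measures moved with the order. The heat shock genes went from 3821 to 841 non-collagen CPM, deeper-zone markers went from 7484 to 14208 and superficial-zone markers from 1349.8 to 648, and median depth went from 5127 to 7844 UMIs. In cells at or below the class median of heat shock genes, the log2 ratios were 1.39 for Serpinh1, 2.14 for P3h1, -0.95 for Hspa5 and -1.17 for Ddit3. Thinned to 2000 UMIs per cell they were 1.16, 1.68, -0.76 and -0.98. With classes from clusters they were 1.82, 2.58, -0.45 and -0.89, so that Hspa5 fell short of 1.5-fold there. The part of zone markers in these ratios was not tested.

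**Figure D4:**
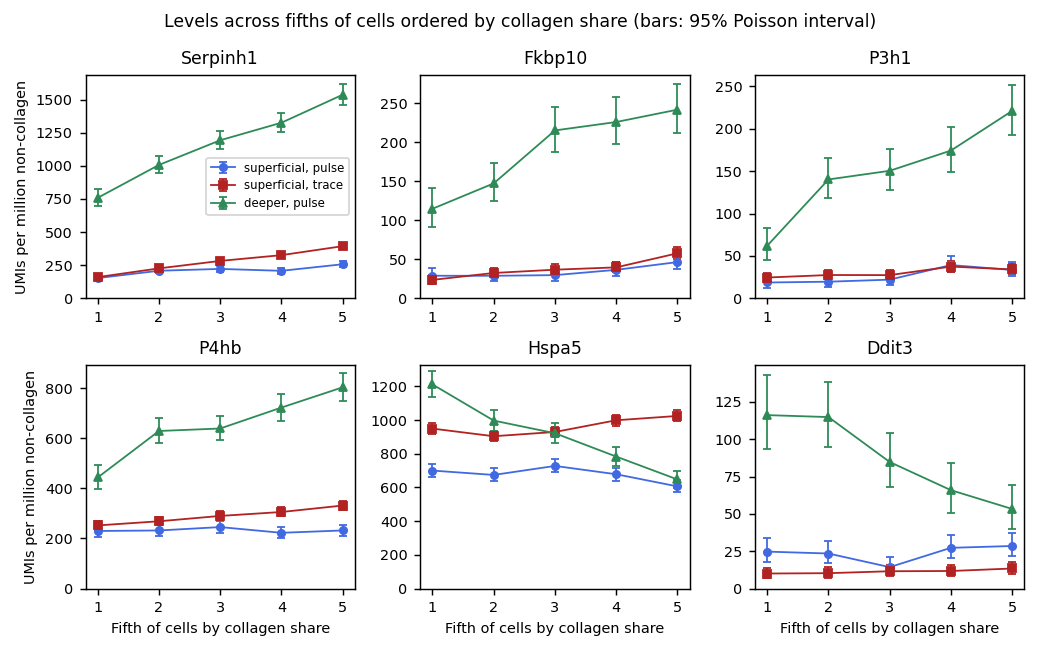
Level of 6 members, in non-collagen CPM, in 5 equal groups of cells ordered from low (1) to high (5) collagen share, in superficial-zone-like cells of both libraries and deeper-zone-like pulse cells; bars are exact 95% Poisson intervals. Serpinh1, Fkbp10, P3h1 and P4hb climb and Hspa5 and Ddit3 decline in deeper-zone-like cells; Serpinh1 and Fkbp10 also climb in superficial-zone-like trace cells (2.46-fold and 2.44-fold from the lowest group to the highest).

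In superficial-zone-like cells Serpinh1, Fkbp10 and Pcolce were at least 1.5-fold higher in the highest quintile in both libraries. The collagen share ran from 0.447% to 2.87% in pulse and from 0.318% to 2.13% in trace. In pulse 4 of 41 members were at least 1.5-fold higher in the highest quintile (5.13% of 6300 genes) and none lower (11.4%), with medians of 0.07 and -0.12. In trace 9 of 40 were higher (5.83% of 5778 genes) and 1 lower (3.7%), with medians of 0.34 and 0.07. Serpinh1 went from 153 to 257 non-collagen CPM in pulse (1.68-fold, 1.44 to 1.96) and from 160.3 to 394 in trace (2.46-fold, 2.22 to 2.72), and Fkbp10 from 28.9 to 46.5 in pulse (1.61-fold, 1.12 to 2.32) and from 23.7 to 57.7 in trace (2.44-fold, 1.88 to 3.19). In pulse Fkbp10 fell short of 1.5-fold after thinning (log2 ratio of 0.28), with classes from clusters (0.48) and without the highest Scrublet scores (0.49). P3h1 was the fourth in pulse, and P3h2, P3h3, P3h4, Sec61a1, Mia3 and Creb3l1 joined in trace. Of those that joined in trace, all but Creb3l1 fell short of 1.5-fold under some setting. The log2 ratios with classes from clusters were 0.29 for Sec61a1 and 0.35 for Mia3. P3h3 was at 0.31 in cells low in heat shock genes, P3h4 at 0.49 after thinning and P3h2 at 0.45 when ordered by fibrillar collagens. P3h2 stood at 540.1, 736, 829, 809 and 903 non-collagen CPM across the trace quintiles. Hspa5 stayed within 1.5-fold here. From the lowest to the highest quintile it went down from 700.0 to 606 non-collagen CPM in pulse and up from 949 to 1024 in trace. P3h1 and Serpinh1 fell short of 1.5-fold among pulse cells of 3000 to 6000 UMIs (log2 ratios of 0.05 and 0.50), and P3h1 also when cells were ordered by fibrillar collagens (0.53).

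Type X collagen took a larger part of the collagen in the highest quintile than in the lowest in superficial-zone-like cells. Col10a1 and Col2a1 are both counted in the share that orders the cells, so their parts are not independent of that order. Col10a1 made up 7.92% of collagen UMIs in the lowest pulse quintile and 51.1% in the highest, and 10.9% and 36.4% in trace, while Col2a1 stood at 22.8% and 25.0%, and at 11.8% and 26.3%. Superficial-zone markers went from 40700 to 33145 non-collagen CPM in pulse and from 81759 to 65428 in trace, and the heat shock genes from 4860 to 2553 and from 9147 to 852. Their part in the ratios was not tested. Ordered by the 8 fibrillar collagen genes alone, 8 members were higher and 1 lower in pulse, and 15 higher and 1 lower in trace. The lower gene in trace was Pcolce2 under both orders. It stood at 634 non-collagen CPM in the lowest and 383 in the highest trace quintile by all collagens, a log2 ratio of -0.73 that was -0.00 when classes came from clusters. Its log2 ratio by fibrillar collagens was -1.87 in pulse and -2.13 in trace. In pulse by all collagens Pcolce2 was high at both ends, at 695, 432, 376, 369 and 667 non-collagen CPM.

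Deeper-zone-like trace cells (34 to 35 per quintile), the fibroblast-like classes and osteoblast-like trace cells gave coarser values. In deeper-zone-like trace cells 11 of 42 members were at least 1.5-fold higher (24.4% of 6057 genes) and 5 lower (31.6%). Serpinh1 was 1.68-fold higher (1.33 to 2.12), and Hspa5 went from 2648 to 1047 non-collagen CPM (2.53-fold lower). In osteoblast-like cells, where the collagen share ran from 0.410% to 13.3%, 22 of 39 were higher (26.3% of 4722 genes) and 5 lower (33.5%). Serpinh1 there went from 514 to 1409 non-collagen CPM (2.74-fold, 1.93 to 3.98) on 40 and 158 UMIs, and Fkbp10 from 0 to 22 UMIs. Hspa5 was lower in the highest quintile in osteoblast-like (0.453 of the lowest, 0.276 to 0.733), synovial lining-like (0.595, 0.459 to 0.765, in pulse and 0.629, 0.557 to 0.709, in trace) and loose fibroblast-like trace cells (0.526, 0.420 to 0.656). In synovial lining-like pulse cells 14 of 41 members were higher (31% of 6480 genes) and 5 lower (22.9%). In trace 13 of 43 were higher (23.3% of 6103 genes) and 1 lower (9%). The largest member ratio in synovial lining-like trace cells was that of P3h2, on 47 and 3 UMIs (14.2-fold, 4.57 to 71.4). P3h2 was far higher in superficial-zone-like than in synovial lining-like cells. The part of RNA from other cells in the synovial lining-like ratios was not tested. In loose fibroblast-like pulse cells, with 21 cells a quintile, 12 of 34 were higher (30.8% of 3300 genes) and 3 lower (25.5%). In trace 18 of 41 were higher (29% of 6720 genes) and 2 lower (24.7%). Osteoblast markers went from 5405 to 21917 non-collagen CPM across the osteoblast-like quintiles, so the order there also runs from weakly to strongly marked cells.

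Across single cells thinned to 2000 UMIs, the members' Spearman correlations with the collagen count were low and are given as a description, since the points are cells of 1 library that share its free RNA and depth. The median over members was 0.142 in 607 deeper-zone-like pulse cells (0.015 over 6232 genes), 0.063 in 2259 superficial-zone-like pulse cells (0.013 over 5897) and 0.097 in 3162 trace cells (0.023 over 5484). In 153 deeper-zone-like trace cells it was 0.077 (0.012 over 5219 genes), with Ppib (0.474) and Pcolce2 (0.352) above Serpinh1 (0.257) and P4ha3 lowest (-0.206). In deeper-zone-like pulse cells the highest values were those of Serpinh1 (0.419), Ppib (0.358) and Ssr4 (0.340), and Hspa5 and Ddit3 were both at -0.070. In superficial-zone-like trace cells Serpinh1 (0.236), P3h2 (0.232) and Plod2 (0.230) were highest and Pcolce2 was lowest (-0.085). The superficial-zone-like pulse cells had Ssr4 (0.203), P3h2 (0.184) and P4ha2 (0.154) highest and Sec61a1 lowest (-0.015). Serpinh1 (0.121) and Fkbp10 (0.022) did not lead there.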

How the data were processed

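Droplet libraries of 3′ tags (10x, V2 chemistry per the labels) were made from 2 pools of mice, 1 per group. The authors deposited filtered matrices of UMI counts per gene and barcode, made with Cell Ranger 7.1.0 per the file headers (the submitters' processing notes name 3.0.1) on mm10. No count was rescaled. Cells needed 500 genes and at most 10% mitochondrial UMIs. Classes were gated on summed markers per 10000 UMIs, with at least 3 UMIs of 2 markers. For example, superficial-zone-like cells needed 160 or more, with 20 or more of the deeper-zone markers, and deeper-zone-like cells needed 40 or more, with fewer than 40 of the superficial-zone markers. UMIs were summed by class and library and given per 1000000 UMIs (CPM). Ratios carry exact conditional Poisson 95% intervals for counting error only, and were read where 1 side had 20 CPM or more and more than 3 UMIs, with 0 UMIs set at 3. They were called at 2-fold, or 1.5-fold between collagen quintiles. With 1 library a group there is no test. Scrublet called no doublets in either library, so it did not work here, and doublets were not removed; leaving out the highest 5% of its scores was tried instead. The comparison code was tested on simulated counts. Python 3.11.15, numpy 2.4.6, scipy 1.17.1 and scanpy 1.11.5 were used. Genes were named by role, with values for those past the fold and up to 3 per role with the highest level. Other pathway genes were named only past the fold. The members, the other lists and the gates were chosen with earlier results of these data known. The gate cuts, the quintiles of deeper-zone-like cells and the split by heat shock genes were set after seeing the data.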

Additional observations from a re-analysis of the deposited data

Results flagged for a closer look

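Pcolce2, the enhancer of C-propeptide removal, differed in direction between classes when the highest collagen quintile was set against the lowest. Its ratio was 1.91 in deeper-zone-like pulse cells, 1.92 in deeper-zone-like trace cells, 6.69 in synovial lining-like pulse cells and 1.64 in synovial lining-like trace cells, but 0.604 in superficial-zone-like trace cells. In superficial-zone-like pulse cells Pcolce2 was high at both ends of the order and stayed within 1.5-fold. Each class is 1 library, so the difference between classes was not tested. With classes from clusters the log2 ratio in superficial-zone-like trace cells was -0.00.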

How the results depend on the processing

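The 98 recomputed counts of members past the fold stayed within 1.5 times of the reported count in 84 cases. The 2 members past 2-fold between trace and pulse in superficial-zone-like cells became 1 with at least 1000 genes a cell, 1 without the highest Scrublet scores, 0 with gate cuts 1.5 times higher, 0 without transcripts associated with ribosomal RNA and 0 when the interval's bound had to pass. The 13 in deeper-zone-like cells became 6 after scaling by the median ratio and 5 by the interval's bound. The 14 of osteoblast-like cells became 9 with classes from clusters and 9 by the bound, and the 8 of synovial lining-like trace cells became 5 by the bound. Between collagen quintiles of superficial-zone-like pulse cells, 4 became 9 by fibrillar collagens, 2 among cells of 3000 to 6000 UMIs and 7 among cells low in heat shock genes. In trace 10 became 16 by fibrillar collagens. Between deeper-zone-like pulse quintiles, P4ha3 reversed to a log2 ratio of 0.0851 with classes from clusters, 0.68 after thinning and 1.44 in cells low in heat shock genes. Fkbp14 reversed to -0.39 after thinning and -0.27 in cells low in heat shock genes, and P3h3 to -0.0756 after thinning. The cause was not tested. Of 1077 recomputed values of single genes, 954 kept their call, 117 crossed the fold and 6 reversed. Leaving out transcripts associated with ribosomal RNA shifted the median of all genes between trace and pulse by 0.13 in superficial-zone-like and 0.14 in deeper-zone-like cells. Cells of 3000 to 6000 UMIs were not run for deeper-zone-like pulse cells. No paired analysis was possible because each group is 1 library with no replicate number.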
